A study of Drosophila melanogaster with 6 samples.

Results

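In fly heads, 45 of 5482 genes measured above a signal floor had a higher transcript level at night than in the day in each of 3 genotypes, and they are described here apart from the clock genes *per*, *tim*, *vri*, *Pdp1* and *cwo*. A gene was a member when a probe set (the group of array probes for its transcript) named for it alone had a mean log2 signal of at least 6.8 over the 6 arrays and read at least 0.4 higher at ZT15 than at ZT3 in every genotype. Where several probe sets of a gene met this, the brightest was used. The members were thus chosen by their day-night differences, which are given as a description with no test. The genotype differences, which are means over both times, were not used in the choice and were tested. The spread behind these tests does come from the same day-night differences, so the p-values of members are not wholly free of the choice.

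Total RNA of 30 *Drosophila melanogaster* heads per sample was hybridised to Affymetrix Drosophila 2.0 arrays. The genotypes are labelled cbt over-expression, cbt RNAi and control, and the series design calls the control flies cyo. Each genotype had 1 array from flies taken at ZT15 and 1 from flies taken at ZT3, after 3 to 4 days in a light-dark cycle. ZT (Zeitgeber time) counts hours from lights-on, so that ZT15 lies in the night and ZT3 in the day. The labels give neither the driver and insertion of the transgenes nor the sex and age of the flies. They do not say that the arrays stand for separate cultures either. Without repeat arrays, the p-values rest on how unequal the day-night steps were between the genotypes, and on a spread shared over probe sets. That spread may be technical.

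The array medians lay between 7.35 and 7.42 on the log2 scale. The transcript of *cbt* (cabut, a zinc finger transcription factor that responds to dietary sugar) went against the labels. It read 9.90 at ZT15 and 8.98 at ZT3 in the library labelled cbt over-expression, 11.05 and 10.99 in that labelled cbt RNAi, and 10.72 and 10.21 in control. The genotypes are therefore called over-expression-labelled and RNAi-labelled, and no direction is read as an effect of more or less *cbt*. *Dcr-2*, the Dicer of the RNA interference pathway, read 12.87 and 12.96 on the RNAi-labelled arrays and between 8.52 and 8.79 on the other 4. One array stood apart: the 5 digestive tract markers in the table averaged 9.35 on the over-expression-labelled ZT3 array and 4.94 to 5.82 on the other 5. The head markers *elav* (neurons, 9.97 to 10.67) and *repo* (glia, 9.13 to 9.50) were well above the floor on every array, each lowest on that same array. The 9 neuron markers in the table averaged 8.99 on it and 9.32 to 9.73 on the other 5. The neuron marker *para* lay under the floor there (6.50) and on the RNAi-labelled ZT15 array (6.36). The 9 glia markers averaged 9.58 to 9.76 over the 6 arrays.

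In the fly clock the transcription factors CLOCK and CYCLE drive *per* and *tim* towards the evening, and the PER and TIM proteins later repress their own transcription. The same factors drive *vri*, *Pdp1* and *cwo*, and other genes with CLOCK-bound enhancers reach their highest transcript level in the early night. A transcript can also differ between night and day because flies feed, move or see light at different hours, and a pair of times cannot separate a clock-driven rhythm from a response to light.

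The 45 members were a small part of the probe sets that were higher at night in any single genotype. Among the 5747 probe sets above the floor with 1 gene, the ZT15 minus ZT3 difference was at least 0.4 for 360 (6.26%) in the over-expression-labelled, 176 (3.06%) in the RNAi-labelled and 233 (4.05%) in the control genotype. It reached 0.4 in all 3 genotypes for 48 probe sets, which are the 45 members and those of *tim*, *vri* and *Pdp1*. A further 59 probe sets passed in the over-expression-labelled and control genotypes but not in the RNAi-labelled one, 26 passed in both altered genotypes but not in control, and 23 passed in the RNAi-labelled and control genotypes but not in the over-expression-labelled one. By the mirrored rule 60 genes were higher at ZT3 in all 3 genotypes. Of the other left-out clock genes, *per* had a mean signal just under the floor with differences of 2.67, 2.38 and 2.41 in the over-expression-labelled, RNAi-labelled and control genotypes, and the brightest probe set of *cwo* reached only 0.29 in the RNAi-labelled genotype.

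The members' day-night differences ran from 0.44 to 3.06 in the over-expression-labelled genotype (median 0.98), from 0.40 to 2.06 in the RNAi-labelled genotype (0.70) and from 0.40 to 2.88 in control (0.87). Over all probe sets tested the medians were 0.01, -0.03 and -0.02 in the same genotypes. The step was largest in the over-expression-labelled genotype for 23 members, in the RNAi-labelled genotype for 7 and in control for 15, and it was smallest in the RNAi-labelled genotype for 26. This order of the genotypes is also that of the shares of all probe sets given above. Every over-expression-labelled step uses the ZT3 array on which digestive tract markers were high, and the part of that array was not tested. In the fit over the 3 genotypes 34 of the 45 passed for time, where 0.644% of probe sets tested passed as higher, and 0.626% passed as lower, none of them a member. The rule used this contrast and nothing is read from that count. For 27 members every ZT15 array read above every ZT3 array, and for the other 18 the arrays of the 2 times overlapped. Of all probe sets tested 3.27% had every ZT15 array above every ZT3 array, and since the rule used this contrast nothing is read from the members' count. In whole heads, fewer cells of a type and less RNA per cell cannot be told apart.

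**Figure D1:**
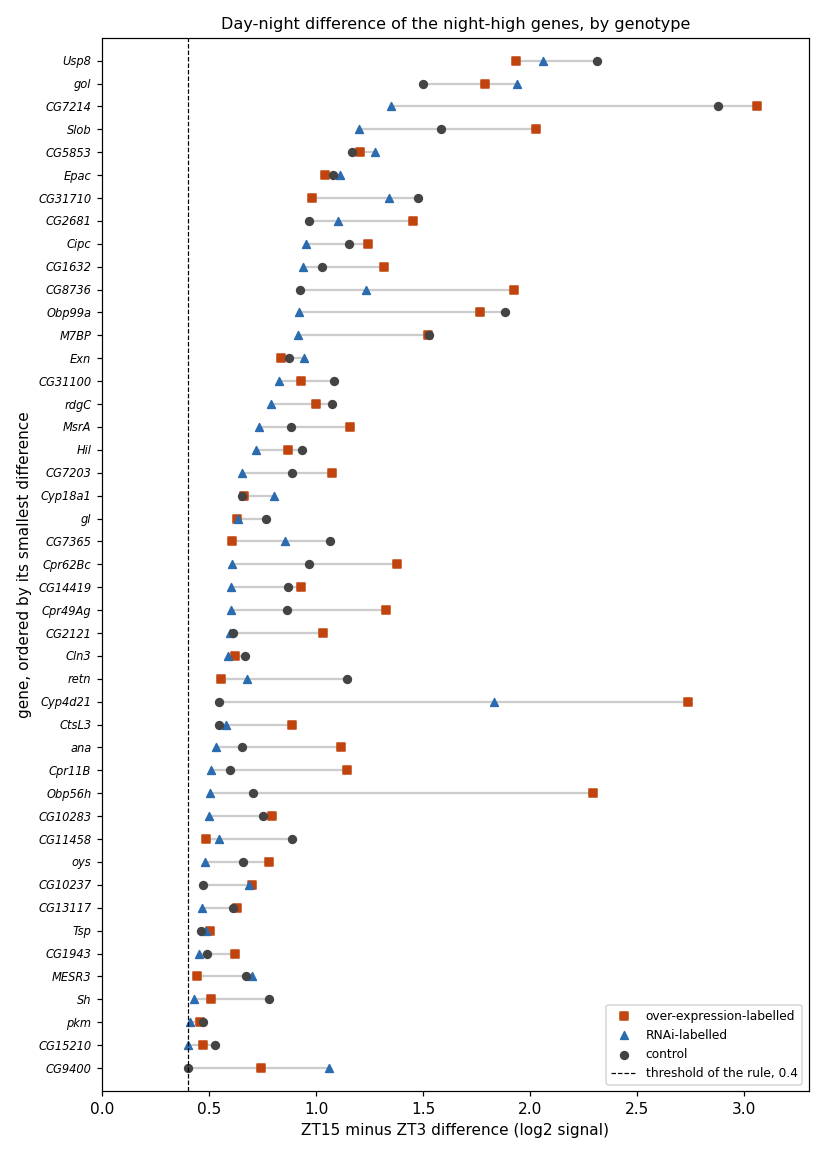
Each row is 1 of the 45 night-high genes, ordered by its smallest difference, and the points give the ZT15 minus ZT3 difference in log2 signal for the over-expression-labelled (squares), RNAi-labelled (triangles) and control (circles) genotypes, 1 array per genotype and time, with a grey line over their range. *Usp8* has the largest smallest difference (1.94), while *CG7214*, *Cyp4d21* and *Obp56h* have the widest ranges.

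By the smallest of the 3 differences the highest-ranked members were 2 genes of the ubiquitin pathway. *Usp8*, which encodes a deubiquitinating enzyme, read 9.90 at ZT15 and 7.96 at ZT3 in over-expression-labelled heads, 9.90 and 7.84 in RNAi-labelled heads, and 10.22 and 7.91 in control heads. Its night level was thus 3.82-fold, 4.17-fold and 4.96-fold the day level in over-expression-labelled, RNAi-labelled and control heads, and the 3 day values lay within 0.12 log2 units of each other. *gol* (goliath), a RING-type ubiquitin ligase gene, read 10.61 and 8.82 in over-expression-labelled, 11.21 and 9.27 in RNAi-labelled and 10.57 and 9.07 in control heads. Both genes were high on all 3 night arrays and low on all 3 day arrays, with no overlap. A second, dimmer probe set of *gol* also read higher at ZT15, by 0.43, 0.17 and 0.50 in over-expression-labelled, RNAi-labelled and control heads.

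Several members act in signalling and membrane excitability. *Slob* encodes a protein that binds the Slowpoke calcium-activated potassium channel, and read 10.71 and 8.68 at ZT15 and ZT3 in over-expression-labelled, 11.04 and 9.85 in RNAi-labelled and 10.64 and 9.06 in control heads. Its difference of 1.20 in the RNAi-labelled genotype was the smallest of the 3, and both its night and its day level were highest there. *Epac*, the gene of a cAMP-activated exchange factor for Rap proteins, read 8.34 and 7.30 in over-expression-labelled, 8.10 and 6.99 in RNAi-labelled and 8.48 and 7.41 in control heads. Its differences of 1.04, 1.11 and 1.08 in over-expression-labelled, RNAi-labelled and control heads lay within 0.07 of each other. *Exn* differed by 0.83, 0.94 and 0.87 in over-expression-labelled, RNAi-labelled and control heads. *Sh*, the Shaker voltage-gated potassium channel gene, had differences of 0.51, 0.43 and 0.78 in over-expression-labelled, RNAi-labelled and control heads.

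*Cipc* is related to the clock by background knowledge, since its mammalian counterpart binds CLOCK and represses it. It read 9.21 at ZT15 and 7.97 at ZT3 in over-expression-labelled heads, 9.54 and 8.59 in RNAi-labelled heads, and 9.99 and 8.84 in control heads. The day-night differences were 1.24, 0.95 and 1.15 in over-expression-labelled, RNAi-labelled and control heads, while the level was lowest on the over-expression-labelled arrays at both times.

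**Figure D2:**
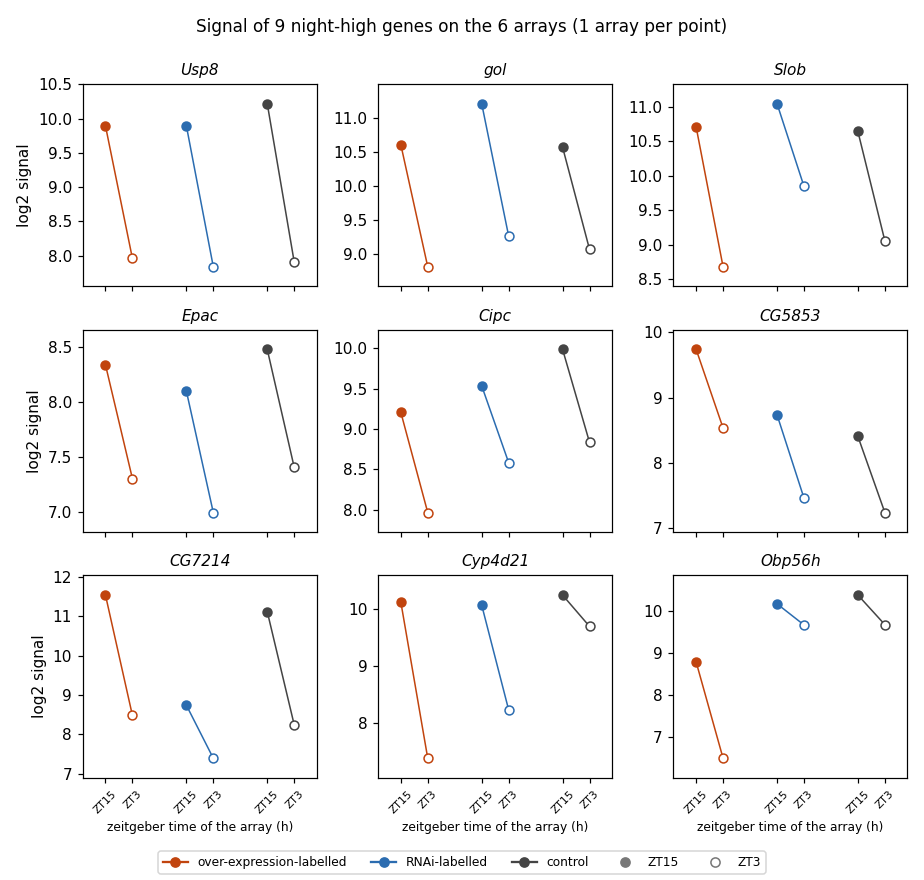
Each panel shows 1 gene, with log2 signal on the vertical axis (scales differ between panels and do not start at 0) and the 6 arrays along the horizontal one, filled points for ZT15 and open points for ZT3, joined within a genotype. *Epac* has near-equal steps in the 3 genotypes, *CG5853* keeps its step at a higher level in over-expression-labelled heads, and in *Cyp4d21* the night levels nearly coincide while the day levels differ.

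Genes known only by a CG number made up 18 of the 45 members, and several of them ranked high. *CG7214* had the largest single difference of all members, 3.06 in the over-expression-labelled genotype, where it read 11.54 and 8.48 at ZT15 and ZT3. It read 8.75 and 7.40 in RNAi-labelled and 11.12 and 8.25 in control heads, so that its night level in RNAi-labelled heads lay far below that of the other genotypes. *CG5853* differed by 1.21, 1.28 and 1.17 in over-expression-labelled, RNAi-labelled and control heads and read 9.74 and 8.53 in over-expression-labelled, 8.74 and 7.46 in RNAi-labelled and 8.41 and 7.24 in control heads. *CG31710* (0.98, 1.34 and 1.48), *CG2681* (1.45, 1.10 and 0.97), *CG1632* (1.32, 0.94 and 1.03) and *CG8736* (1.92, 1.23 and 0.92) also had smallest differences of more than 0.9, with the values given for over-expression-labelled, RNAi-labelled and control heads. The other 12 of these genes, *CG31100*, *CG7203*, *CG7365*, *CG14419*, *CG2121*, *CG10283*, *CG11458*, *CG10237*, *CG13117*, *CG1943*, *CG15210* and *CG9400*, had smallest differences between 0.40 and 0.83.

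Secreted and cuticle proteins formed another group. *Obp99a*, of the odorant-binding protein family of small secreted carriers, read 12.49 at ZT15 and 10.73 at ZT3 in over-expression-labelled, 9.75 and 8.83 in RNAi-labelled and 11.31 and 9.43 in control heads. *Obp56h*, of the same family, read 8.79 and 6.49 in over-expression-labelled, 10.17 and 9.67 in RNAi-labelled and 10.38 and 9.68 in control heads. The day-night step of *Obp56h* was 2.30 in the over-expression-labelled genotype, against 0.50 in the RNAi-labelled one and 0.70 in control. The lowest of its 6 values is that of the over-expression-labelled ZT3 array, on which digestive tract markers were high, and the part of that array in the difference was not tested. The cuticular protein genes *Cpr62Bc* (1.38, 0.61 and 0.97), *Cpr49Ag* (1.33, 0.60 and 0.86) and *Cpr11B* (1.14, 0.51 and 0.60), given for over-expression-labelled, RNAi-labelled and control heads, had their largest step in the over-expression-labelled and their smallest in the RNAi-labelled genotype. The over-expression-labelled ZT3 array held the lowest value of *Cpr49Ag* (7.39) and *Cpr11B* (6.55), while that of *Cpr62Bc* (6.14) was on the control ZT3 array. The part of the former array in these steps was not tested. *Tsp* (thrombospondin, a matrix protein of muscle attachment sites) had nearly equal steps of 0.50, 0.48 and 0.46 in over-expression-labelled, RNAi-labelled and control heads.

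Most genes of these families were no members. By the start of the symbol, a grouping chosen after the values were seen, 12 *Cpr* genes were above the floor. Of those 5, 6 and 6 were at least 0.4 higher at ZT15 in the over-expression-labelled, RNAi-labelled and control genotypes, and 1, 2 and 3 were at least 0.4 lower. Of 19 odorant-binding protein genes 7, 8 and 3 were higher by that much in over-expression-labelled, RNAi-labelled and control heads and 2, 2 and 2 lower. Of 47 cytochrome P450 genes 4, 7 and 2 were higher in over-expression-labelled, RNAi-labelled and control heads and 8, 3 and 14 lower. These counts include the members, 3 *Cpr*, 2 odorant-binding protein and 2 P450 genes, which are higher in every genotype by the choice of the rule. The counts of higher genes are thus not independent of the choice, and nothing is read from them about the families. Of all 5747 probe sets tested 6.26%, 3.06% and 4.05% were at least 0.4 higher in the same genotypes, and 314, 299 and 449 were at least 0.4 lower.

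Enzymes were the next group. *Cyp18a1*, whose product inactivates the steroid hormone ecdysone, read 9.59 and 8.93 at ZT15 and ZT3 in over-expression-labelled, 8.73 and 7.93 in RNAi-labelled and 9.17 and 8.52 in control heads. Its steps were 0.66, 0.80 and 0.65 in over-expression-labelled, RNAi-labelled and control heads, at levels that differed by genotype. *MsrA*, a methionine sulfoxide reductase gene also known as an ecdysone-induced gene, differed by 1.16, 0.73 and 0.88 in over-expression-labelled, RNAi-labelled and control heads. The lysophospholipid acyltransferase gene *oys* (0.78, 0.48 and 0.66), the cathepsin L-type protease gene *CtsL3* (0.89, 0.58 and 0.55) and *Cln3*, which encodes a lysosomal membrane protein (0.62, 0.59 and 0.67), had smaller steps in over-expression-labelled, RNAi-labelled and control heads.

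*Cyp4d21* had the widest range of the members. This P450 gene, also called sxe1, is expressed in a male-biased way in head fat body. It read 10.12 at ZT15 and 7.39 at ZT3 in over-expression-labelled heads, 10.07 and 8.23 in RNAi-labelled heads, and 10.24 and 9.69 in control heads. Its night levels were nearly the same in the 3 genotypes, and the differences of 2.73, 1.83 and 0.55 in over-expression-labelled, RNAi-labelled and control heads follow the day levels. The lowest of its 6 values (7.39) is that of the over-expression-labelled ZT3 array, whose part in the difference was not tested. The sex markers in the table, 6 of 8, mix female-biased with male-biased genes, *Cyp4d21* itself among them. They averaged 12.42 and 11.76 at ZT15 and ZT3 in over-expression-labelled, 12.36 and 11.91 in RNAi-labelled and 12.63 and 12.57 in control heads. Because it mixes both kinds and holds *Cyp4d21*, this average cannot show the sex of the heads. The male-biased *sxe2* read 8.57 and 7.69 at ZT15 and ZT3 in over-expression-labelled, 9.90 and 9.59 in RNAi-labelled and 9.44 and 10.26 in control heads. The yolk protein gene *Yp1*, a female marker, stayed between 14.26 and 14.32 on all 6 arrays, close to the top of the scale. *fit*, a female-biased gene of head fat body, read 13.22 and 12.98 at ZT15 and ZT3 in over-expression-labelled, 11.59 and 11.10 in RNAi-labelled and 13.39 and 12.69 in control heads. It was lower in RNAi-labelled than in control heads (log2 -1.69, limma adjusted p = 0.00272). *sxe2* was lower in over-expression-labelled than in control heads (log2 -1.72, limma adjusted p = 0.0426). The labels do not give the sex of the pooled heads, and its part in the *Cyp4d21* differences was not tested.

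Among genes with roles in the eye and nervous system, *rdgC*, the gene of a calcium-dependent phosphatase that acts on rhodopsin, read 8.80 and 7.80 at ZT15 and ZT3 in over-expression-labelled, 9.16 and 8.37 in RNAi-labelled and 9.31 and 8.23 in control heads. *gl* (glass), a transcription factor gene needed for photoreceptor development, read 8.12 and 7.49 in over-expression-labelled, 8.76 and 8.12 in RNAi-labelled and 8.35 and 7.59 in control heads. Both had steps of similar size in the 3 genotypes. *retn* (retained, an ARID-domain DNA-binding protein gene) differed by 0.56, 0.68 and 1.14, and *ana* (anachronism, a secreted glycoprotein of glia) by 1.12, 0.53 and 0.66 in over-expression-labelled, RNAi-labelled and control heads. The remaining members with a symbol were *M7BP* (1.52, 0.92 and 1.53), *Hil* (0.87, 0.72 and 0.94), *MESR3* (0.44, 0.70 and 0.67) and *pkm* (0.46, 0.41 and 0.47), with the steps in over-expression-labelled, RNAi-labelled and control heads.

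The thresholds cut through a continuous range. By the smallest of the 3 differences the last members inside were *pkm* (0.41), *CG15210* (0.40) and *CG9400* (0.40), and the first probe sets outside were those of *CG4962* and *shams*, both just under 0.40, and *wtrw* (0.39). By mean signal the dimmest members were *CG8736* (7.02), *CG2681* (7.11) and *Cpr62Bc* (7.16), and, *per* aside, the brightest genes under the floor that met the difference rule were *kon* (6.76), *Vajk2* (6.72) and *ort* (6.70). In all, 12 members had a smallest difference under 0.5, and 30 probe sets met the difference rule below the floor.

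Of the members 7 had further probe sets, 10 in number. Of these 5 read higher at ZT15 in all 3 genotypes and 2 read lower in all 3. The 2 lower ones both belong to *M7BP*, whose brighter probe sets differed by -0.12, -0.07 and -0.33 and by -0.51, -0.32 and -1.01 in over-expression-labelled, RNAi-labelled and control heads. The brightest *rdgC* probe set differed by 0.23, -0.02 and -0.04 in over-expression-labelled, RNAi-labelled and control heads. For *Sh* the 3 brighter probe sets differed by 0.86, 0.36 and 0.74, by 0.33, -0.51 and 0.06, and by 0.01, -1.14 and -0.64 in over-expression-labelled, RNAi-labelled and control heads. For these 3 genes at least 1 brighter probe set did not meet the rule, so the night-high reading holds for the probe set used and not for every probe set of the gene.

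Against control, over-expression-labelled heads had more of *CG5853*, *Obp99a* and *Cpr62Bc* and less of *Obp56h*, *Cpr11B*, *Cpr49Ag* and *Cipc*. *Obp56h* was 5.23-fold lower (log2 -2.39 ± 0.42 SE, 2 arrays against 2, limma adjusted p = 0.0284), with log2 differences of -1.59 at ZT15 and -3.18 at ZT3. *CG5853* was 2.49-fold higher (1.31 ± 0.09, limma adjusted p = 0.00365), to nearly the same extent at ZT15 (1.33) and ZT3 (1.29). *Obp99a* was 2.36-fold higher (1.24 ± 0.24, limma adjusted p = 0.0334) and *Cpr62Bc* 2.30-fold higher (1.20 ± 0.19, limma adjusted p = 0.0224). The control mean of *Cpr62Bc* (6.62) lay under the signal floor, which the gene reached only through the altered genotypes. The other cuticular protein members went the other way, *Cpr11B* by -0.96 and *Cpr49Ag* by -0.95. *Cipc* was 1.77-fold lower (-0.83 ± 0.11, limma adjusted p = 0.0152). *CG2121* (-0.80), *Sh* (-0.56), *CG13117* (-0.48) and *rdgC* (-0.47) also fell, and *CG7365* (0.76), *CG15210* (0.48) and *Cyp18a1* (0.42) also rose. The falls of *rdgC* and *Sh* hold for the probe sets used: the brighter *rdgC* probe set differed by -0.22 (limma adjusted p = 0.209), and the 3 brighter *Sh* probe sets by -0.44, -0.55 and -0.47, none of which passed (limma adjusted p between 0.0936 and 0.263). With no filter on dim probe sets *Sh*, *rdgC* and *Cyp18a1* no longer passed.

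In all 14 of 45 members passed for over-expression-labelled against control heads, 31.1% against 11.2% of all probe sets tested. Of them 6 were higher (13.3% of members against 5.99%) and 8 lower (17.8% against 5.2%). The 6 higher include *Cpr62Bc*, which reached the signal floor only through the altered genotypes. The median difference was -0.05 over the members and -0.01 over all probe sets. By limma no member passed without the control ZT3 array or without the control ZT15 array (18 and 17 at an unadjusted p under 0.05). In these fits 0 and 6 of all 5747 probe sets passed, so the loss was not particular to the members. There were 6 members that passed without the over-expression-labelled ZT3 array, 5 of them among the 14. The 9 neuron markers in the table, of 12 listed, averaged 9.32 and 8.99 at ZT15 and ZT3 in over-expression-labelled heads and 9.70 and 9.64 in control heads, in the same direction as *Sh* and *rdgC*, and their part in those 2 results was not tested.

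RNAi-labelled heads had less of *CtsL3*, *CG7214*, *CG15210* and *Cpr49Ag* and more of *CG14419* and *CG2681* than control heads. *CtsL3* read 6.70 and 6.12 at ZT15 and ZT3 in RNAi-labelled heads and 8.39 and 7.84 in control heads, 3.26-fold lower (log2 -1.70 ± 0.12 SE, 2 arrays against 2, limma adjusted p = 0.00272), and the groups did not overlap. *CG15210* read 6.94 and 6.53 in RNAi-labelled heads and 8.33 and 7.80 in control heads and was 2.52-fold lower (-1.33 ± 0.09, limma adjusted p = 0.00272), again without overlap. *Cpr49Ag* was 2.38-fold lower (-1.25 ± 0.17, limma adjusted p = 0.0127). *CG7214* was 3.06-fold lower (-1.61 ± 0.40, limma adjusted p = 0.0477), with log2 differences of -2.38 at ZT15 and -0.85 at ZT3. Its value ran from -2.42 to -0.81 over 14 other settings and did not pass in 7 of them, among them no filter, no trend and both other scalings. *CG9400* (-1.09), *Obp99a* (-1.08), *CG7203* (-1.03), *Cpr11B* (-0.97), *CG10237* (-0.66), *CG11458* (-0.62), *CG7365* (-0.54), *Cyp18a1* (-0.51) and *Epac* (-0.40) also fell. A dimmer *Cyp18a1* probe set differed by -0.10 (limma adjusted p = 0.662). With no filter on dim probe sets *Obp99a*, *CG7365*, *Epac* and *CG2681* no longer passed. In RNAi-labelled heads the means of *CtsL3* (6.41), *CG15210* (6.73), *CG9400* (6.37) and *CG7365* (6.69) lay under the 6.8 floor. These genes reached the floor only through the other genotypes, so their calls as lower are not independent of the filter. *CG14419* was 1.74-fold higher (0.80 ± 0.11, limma adjusted p = 0.0118), and *CG2681* (0.66), *MsrA* (0.58) and *gl* (0.47) also rose.

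This made 17 of 45 members for RNAi-labelled against control heads, a comparison that shares its control arrays with the one above, 37.8% against 16.5% of all probe sets tested. Of these 4 were higher (8.89% of members against 6.07%) and 13 lower (28.9% against 10.4%). The 13 lower include *CtsL3*, *CG15210*, *CG9400* and *CG7365*, which reached the signal floor only through the other genotypes. That share is thus not independent of the filter. The median difference was -0.09 over the members and -0.0034 over all probe sets. By limma no member passed without either control array (19 at an unadjusted p under 0.05 without the ZT3 and 17 without the ZT15 array), where 16 and 4 of all 5747 probe sets passed. Without the RNAi-labelled ZT3 array 8 passed, and without the ZT15 array 11 did. *gl* belongs to the photoreceptor markers, of which 3 of 8 were in the table and averaged 9.95 and 9.70 at ZT15 and ZT3 in RNAi-labelled heads and 9.50 and 9.01 in control heads, and the part of photoreceptor content in its rise was not tested.

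**Figure D3:**
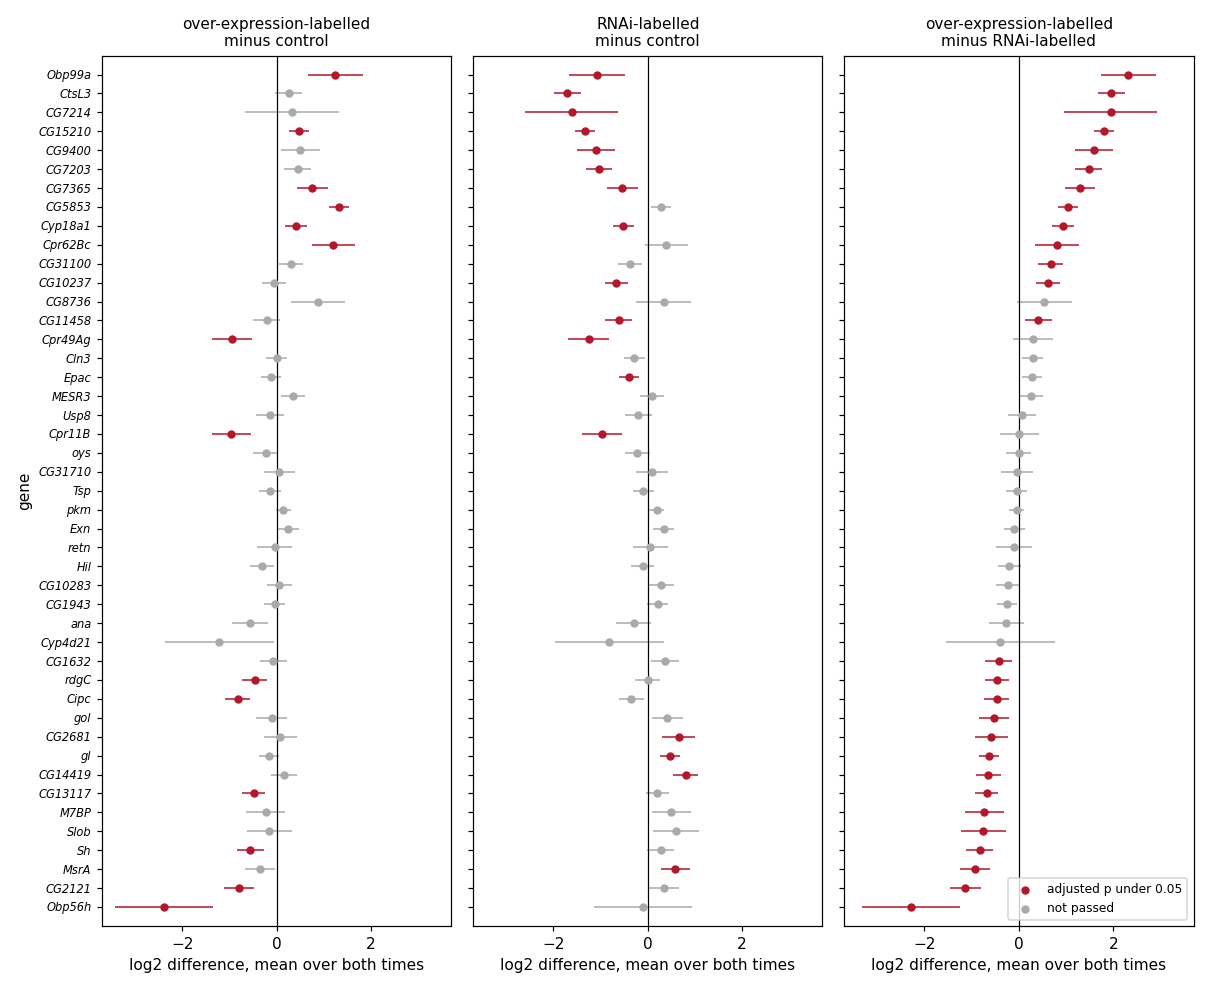
Each row is 1 of the 45 night-high genes, ordered by the third panel, and each panel gives 1 genotype comparison as the log2 difference averaged over both times with its 95% interval (limma, 6 arrays), red where the adjusted p was under 0.05. *Obp99a* and *CtsL3* stand at the top and *Obp56h* at the bottom of the comparison between the altered genotypes, which passed for 27 genes. The panels share arrays, so they are not independent of each other.

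The altered genotypes differed from each other in 27 members, 60% against 35.8% of all probe sets tested, with 13 higher (28.9% against 18.1%) and 14 lower (31.1% against 17.7%) in over-expression-labelled heads. *Obp99a* was 4.97-fold higher in over-expression-labelled than in RNAi-labelled heads (log2 2.31 ± 0.24 SE, 2 arrays against 2, limma adjusted p = 0.00231), and *CtsL3* was 3.88-fold higher (1.96 ± 0.12, limma adjusted p = 0.000634). *CG7214* (1.94), *CG15210* (1.81), *CG9400* (1.60), *CG7203* (1.48), *CG7365* (1.30) and *CG5853* (1.04) followed. Of these higher genes *CtsL3*, *CG15210*, *CG9400* and *CG7365* had RNAi-labelled means under the signal floor, which they reached only through the other genotypes. The 13 higher members include them, so that share is not independent of the filter. *Obp56h* was 4.86-fold lower (-2.28 ± 0.42, limma adjusted p = 0.0123). *CG2121* (-1.14), *MsrA* (-0.93), *Sh* (-0.83), *Slob* (-0.75), *M7BP* (-0.73), *CG13117* (-0.68), *CG14419* (-0.65) and *gl* (-0.64) were the next lower ones. The 2 brighter *M7BP* probe sets went opposite ways, by 0.92 and -1.02, and of the 3 brighter *Sh* probe sets 1 passed, at -0.89. The median difference was -0.05 over the members and -0.02 over all probe sets. Without the RNAi-labelled ZT3 array 17 members passed by limma.

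Some members had no genotype difference that passed: 15 of the 45 were in none of the 3 sets of calls, namely *Usp8*, *CG31710*, *CG8736*, *Exn*, *Hil*, *Cln3*, *retn*, *Cyp4d21*, *ana*, *CG10283*, *oys*, *Tsp*, *CG1943*, *MESR3* and *pkm*. For *Usp8* the 95% interval of the difference from control was -0.43 to 0.16 in the over-expression-labelled and -0.49 to 0.10 in the RNAi-labelled genotype. For *Cyp4d21* the intervals were wide, -2.36 to -0.06 and -1.97 to 0.34, and the difference of -1.21 in the over-expression-labelled genotype had an adjusted p of 0.138 by limma. A difference that did not pass does not show that the levels were equal.

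**Figure D4:**
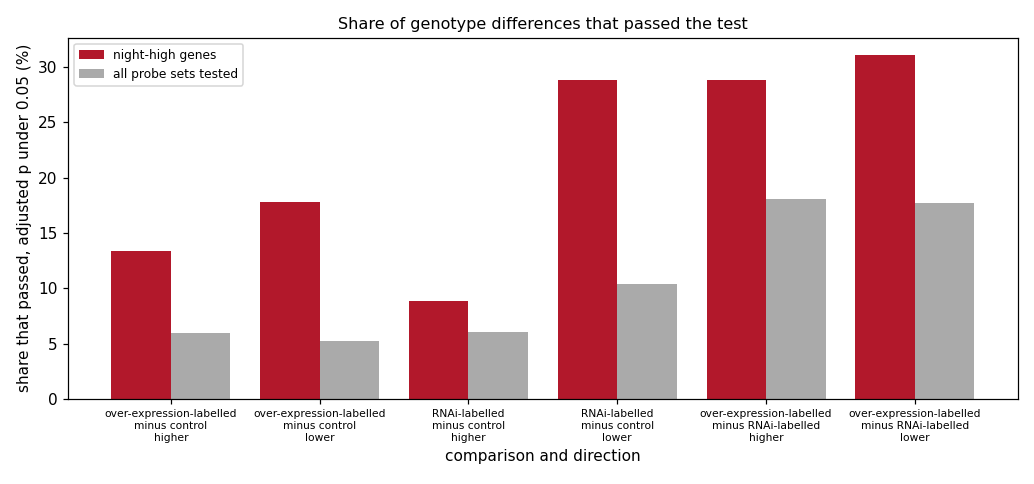
Bars give the percentage of features that passed (limma, adjusted p under 0.05) in each genotype comparison and direction, in red for the 45 night-high genes and in grey for all 5747 probe sets tested. The red bar is the higher one in all 6 cases, from 8.89% against 6.07% to 31.1% against 17.7%. The first of these shares is 4 of 45 members and lies near the grey bar. The comparisons share arrays, so the 6 cases are not independent. Red bars count 1 probe set per gene and grey bars every probe set. Some red bars count genes whose mean in 1 genotype lay under the signal floor, and these calls are not independent of the filter.

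The listed genes of the clock and its known output gave mixed day-night results. Of 7 core clock genes above the floor, *tim*, *vri* and *Pdp1* met the rule's thresholds, and *Clk* and *cry* passed as lower at ZT15. Of 13 genes listed as rhythmic in fly heads, *Slob*, *Usp8* and *Cyp18a1* are members by the rule. Of the other 10, *Ugt35B1* (-1.92 ± 0.13 SE over 3 pairs of arrays, limma adjusted p = 0.00612) and *Cyp6a21* (-0.61, limma adjusted p = 0.0420) passed as lower. The rest did not pass, namely *Gclc* (-0.06), *trpl* (-0.02), *cu*, *Pdh*, *e*, *loco*, *Ugt49B1* and *Sur-8*. The *trpl* value is a mean of 0.31, 0.09 and -0.44 in over-expression-labelled, RNAi-labelled and control heads. Of 28 detoxification genes *Cyp18a1* and *Cyp4d21* are members and 5 others passed as lower. Of 19 phototransduction genes *inaC* passed as lower (-0.52, limma adjusted p = 0.0320), and of 8 hormone-response genes *MsrA* is a member.

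No pair of members were direct neighbours among protein-coding genes in RefSeq order, but 2 pairs had 1 gene between them. *Cyp4d21* and *Slob* lie on either side of *CG6739*, whose probe set, under the signal floor, differed by -0.03, -0.06 and 0.17 between ZT15 and ZT3 in the over-expression-labelled, RNAi-labelled and control genotypes. *CG7214* and *CG7203* lie on either side of *ATPsynGL*, not analysed here. Both were lower in RNAi-labelled than in control heads, with differences of -1.61 and -1.03, and *CG7203* read 12.90 and 11.82 in over-expression-labelled, 11.21 and 10.55 in RNAi-labelled and 12.36 and 11.47 in control heads. *CG31710* and *CG13117* had 3 genes between them, none of them a member.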

How the data were processed

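The authors deposited 1 signal per probe set and array, which its range shows to be on a log2 scale. The submitters' processing notes name Affymetrix Expression Console. Its version, summarisation and normalization are not given in the sources used here. Every one of the 10956 rows reached 4.00 on at least 1 array, and whether dimmer ones were removed before deposit is not stated. The platform annotation gave 1 gene for 9286 of them, several for 276 and none for 1394. Symbols were updated by gene ID through RefSeq (Release 6 plus ISO1 MT), which matched 9260 and all 45 members.

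Probe sets with 1 gene and a mean of at least 6.8 were fitted with limma 3.58.1 in R 4.3.3 (genotype and time as additive terms, intensity trend, two-sided, Benjamini-Hochberg over 5747 probe sets, threshold 0.05). The residual had 2 degrees of freedom and the empirical Bayes prior 3.77. Because each genotype has a single array at each time, differing day-night steps enter the residual and widen the SE. The residual SD had a median of 0.135 for members and 0.0988 for all, and the rule bounds the members' steps from below. The fit was tested on simulated data with independent noise and no day-night step. That test cannot show how unequal steps act on the p-values of members. For arrays their number, 6, limits the precision.

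The members, lists and tests were chosen with earlier results of these data known. Named genes followed a rule (largest steps, largest passing genotype differences, threshold edges, listed genes, widest and narrowest ranges, neighbours, disagreeing probe sets), and the other members were added so that all 45 are accounted for. The 25 gene lists used include 8 of cell type and sex markers. A search of promoter motifs was not run. Alternatives were other filters, 1 probe set per gene, no trend, no time term, fewer arrays and other scalings. Figures used matplotlib 3.10.9 in Python 3.11.15.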

Additional observations from a re-analysis of the deposited data

Results flagged for a closer look

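In 2 members a genotype difference had opposite signs at the 2 times, by at least 0.2 log2 units each. With 1 array per genotype and time the change of sign was not tested. *retn* lay -0.34 from control at ZT15 and 0.25 from control at ZT3 in over-expression-labelled heads. *Cpr11B* lay 0.32 higher at ZT15 and -0.31 at ZT3 in over-expression-labelled minus RNAi-labelled heads.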

How the results depend on the processing

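Without the time term the members that passed numbered 0 for over-expression-labelled against control (1 at an unadjusted p under 0.05, limma), 2 for RNAi-labelled against control and 3 for over-expression-labelled against RNAi-labelled, since the day-night step then counts as spread. With each array left out in turn the counts ran from 0 to 15, from 0 to 20 and from 17 to 27. The 0s came without a control array, which leaves 1 control array that is assumed to vary like the other groups. The other filters, 1 probe set per gene, no trend, only the arrays compared and both scalings gave 11 to 15, 12 to 20 and 22 to 27. No passing member changed sign in any fit, but each of the 14 and each of the 17 lost its call against control in at least 1. *CG15210*, *CG9400* and *CtsL3* kept theirs between the altered genotypes in every fit that held them. *CG9400*, with a mean of 7.26, was not in the fit with a floor of 7.5. The RNAi-labelled means of *CG15210* (6.73), *CG9400* (6.37) and *CtsL3* (6.41) lay under the 6.8 floor, which these genes reached only through the other genotypes. The number of night-high genes was 69 at a difference of at least 0.3. On 2 genotypes it was 68 (RNAi-labelled and control), 99 (over-expression-labelled and control) and 70 (both altered genotypes). With a threshold of 0.5, other floors, the brightest probe set chosen first or another scaling it was 33 to 58. No paired analysis was possible because the labels give no replicate numbers, and time is already a term of the fit.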

Other observations

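Among probe sets above the floor that name several genes or none, 3 met the same day-night rule and are given as values only. One shared by *CG31904* and *Acp1* read 11.23 at ZT15 and 9.30 at ZT3 in over-expression-labelled heads, 9.70 and 7.69 in RNAi-labelled heads, and 9.73 and 7.07 in control heads, with steps of 1.93, 2.01 and 2.66 in over-expression-labelled, RNAi-labelled and control heads. One shared by *Edem1* and *CG32801* had steps of 0.48, 0.54 and 0.45, and one with no listed gene had steps of 0.41, 0.80 and 0.62 in over-expression-labelled, RNAi-labelled and control heads. Which gene of each pair the signal comes from cannot be told from these values.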
